A study of Mus musculus with 8 samples.

Results

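Cx3cr1 and 8 other genes linked to tissue-resident macrophages were described in tumor-associated macrophages (TAMs) of WT and miR-21-/- mice. The 9 genes are Cx3cr1, Fcrls, Slco2b1, Tmem176a, Tmem176b, Gpr34, P2ry12, Tmem119 and Olfml3, out of 53247 genes in the table of values. They were picked by symbol, some because they were among the strongest falls in miR-21-/- TAMs and some because they are known genes of resident macrophages. Since the comparison of the genotypes helped to choose them, their values in that comparison are a description and carry no test.

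RNA-Seq was done on TAMs from s.c. implanted tumors of Lewis lung carcinoma (LLC) cells, a mouse cell line that itself carries no engineered miR-21 deletion. The groups were 4 samples from WT mice and 4 samples from miR-21-/- mice, which lack the microRNA in all host cells and not in macrophages alone. All mice were C57/BL6, were 10 weeks old, and carried a tumor that was taken 14 days after implantation. Cells were sorted by flow cytometry as CD45+ CD11b+ MHC II+ F4/80+. miR-21-/- replicate 1 carries a double number in its title, which may or may not mean that cells were pooled, and it was counted as 1 sample. Numbers of the miR-21-/- replicates follow the order of the samples and partly differ from those in their titles. The study calls the samples of a group biological replicates, and the labels do not name the mice.

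Macrophages that settle in a tissue carry genes that depend on signals of that tissue. Cx3cr1 encodes the receptor of fractalkine (CX3CL1), a chemokine that is anchored in the membrane of other cells and shed by proteases, and in mice the receptor is high on microglia and on patrolling, nonclassical monocytes and lower on classical monocytes. P2ry12, Tmem119, Olfml3, Gpr34, Fcrls and Slco2b1 belong to the genes used to tell microglia from macrophages that came from blood, although several of them are also made by resident macrophages outside the brain. Tmem176a and Tmem176b are a linked pair of membrane proteins that are known from antigen-presenting cells.

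Values are CPM, read counts scaled to a library of 1000000 reads. The depth read from the steps between low values was 20.2 to 33.4 times 1000000 reads, and a single read counted for 0.0300 to 0.0495 CPM. Fold changes compare miR-21-/- with WT on the log2(CPM + 1) scale, on which low genes appear to change less than they do, and were fitted by limma over 13850 genes that reached a mean of 1 CPM relative to the column totals. The threshold was an adjusted p (Benjamini-Hochberg) of no more than 0.005 together with a change of more than 1.5-fold. The deleted gene, Mir21a, was listed at 0 reads in all 8 samples, which leaves the labels of genotype without this check. WT replicate 4 was low among the WT samples in several of the genes described here, among them Cx3cr1, Fcrls, Slco2b1 and Gpr34, and values without it are given. Of 10 pan-macrophage markers, all were measured in both groups and summed to 12034 to 13876 CPM in WT samples and 13087 to 15558 CPM in miR-21-/- samples. Among them Fcgr1 passed as higher (log2 fold change 0.75, adjusted p = 0.000561 by limma), while Csf1r (-0.48) and Adgre1, the gene of the sort marker F4/80 (-0.38), did not pass, with lower values in miR-21-/- samples that did not overlap those of WT.

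The 9 genes did not move as a single group. Cx3cr1, Tmem176b, Tmem176a, Fcrls and Slco2b1 were, in this order, the 5 genes with the lowest log2 fold change of all 13850 tested genes on the log2(CPM + 1) scale. The order depended on the pseudocount. With 0.1 added to the CPM, Slco2b1 (-4.57) lay below Cx3cr1 (-4.03), and 2 of the 9 genes were among the 5 lowest. With 10 added, Tmem176b (-2.43) and Fcrls (-2.21) lay below Cx3cr1 (-2.12), and 4 were among the 5 lowest. On the scale with 1 added, Gpr34 was at rank 102 and P2ry12 at rank 1027 from the lowest. Tmem119 and Olfml3 lay on the other side, at ranks 12604 and 12039, so that the description of all 9 as falling together did not hold for these 2. In numbers, 6 of the 9 genes passed the threshold as lower, where 4.23% of all tested genes did, and 5 of them by more than 4-fold, where 0.195% did. By limma 0 of the 9 passed as higher, where 2.89% of all tested genes did. Nothing is read from these counts because the same contrast had chosen members. The values of the genotypes did not overlap in these 6 genes, with the miR-21-/- samples lower, as in 25.7% of all tested genes. The median log2 fold change of the 9 genes was -2.80, beside -0.10 over all tested genes.

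**Figure D1:**
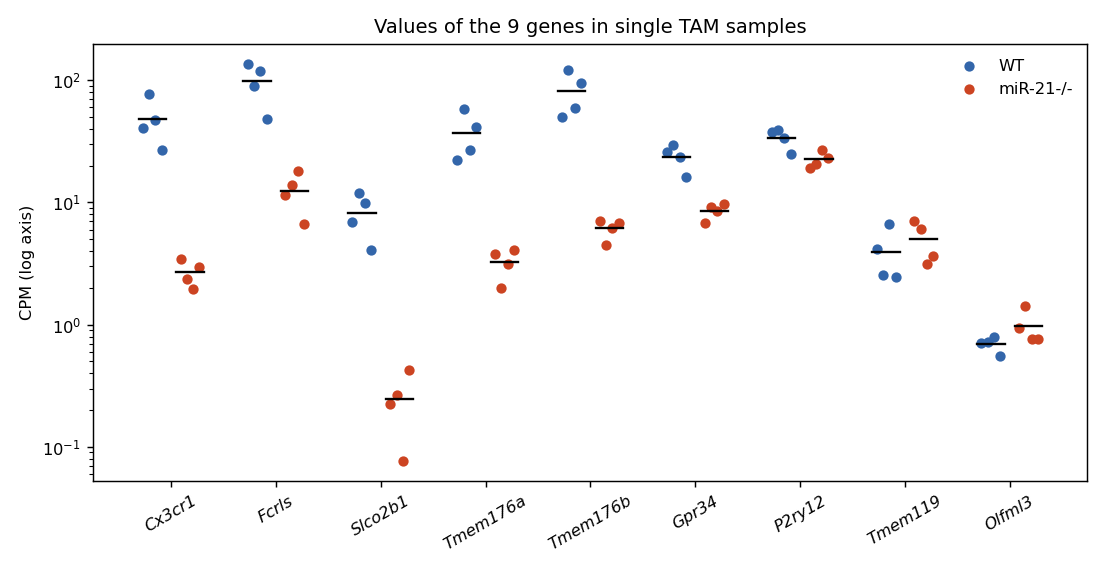
CPM of each of the 9 genes (log axis) in the 4 WT samples (blue) and the 4 miR-21-/- samples (red), with the mean as a black bar. Both groups are apart for Cx3cr1, Fcrls, Slco2b1, Tmem176a, Tmem176b and Gpr34 and overlap for P2ry12, Tmem119 and Olfml3.

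Among the receptors, Cx3cr1 (chr9:119901616-120069879, minus strand, GRCm38) was at 40.5, 77.3, 46.8 and 26.6 CPM in WT replicates 1 to 4 and at 3.47, 2.37, 1.96 and 2.98 CPM in miR-21-/- replicates 1 to 4. The lowest WT sample was far above the highest miR-21-/- sample, and the WT samples also spread widely among themselves. The mean of 47.8 ± 21.4 CPM in WT samples was 17.7 times that of 2.69 ± 0.666 CPM in the miR-21-/- samples (SD, n = 4 in each group), and the log2 fold change was -3.64 with a standard error of 0.27. Its RefSeq promoter, 250 bases before to 50 bases after the annotated start, is shown because Cx3cr1 is the gene the others are compared with (chr9:120068247-120068546, minus strand, GRCm38.p6, written 5′ to 3′). Capitals mark the only match to the motifs searched, TGGGAA, the core bound by RBP-J, the DNA-binding factor of Notch signaling, on the opposite strand and starting 114 bases before the start.
Cx3cr1 promoter: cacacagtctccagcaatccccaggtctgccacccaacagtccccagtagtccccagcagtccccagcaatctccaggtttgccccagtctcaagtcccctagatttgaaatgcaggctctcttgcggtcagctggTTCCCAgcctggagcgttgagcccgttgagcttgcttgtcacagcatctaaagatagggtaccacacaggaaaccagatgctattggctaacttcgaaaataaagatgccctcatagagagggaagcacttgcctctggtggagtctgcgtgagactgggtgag

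Gpr34 is a G protein-coupled receptor of lysophosphatidylserine. It was at 25.7, 29.6, 23.4 and 16.1 CPM in the WT samples and at 6.75, 9.17, 8.56 and 9.62 CPM in the miR-21-/- samples (chrX:13632089-13640858, plus strand). The groups did not overlap, with means of 23.7 ± 5.72 and 8.53 ± 1.26 CPM (SD, 4 samples each) and -1.35 as the log2 fold change (standard error 0.17). P2ry12, the ADP receptor by which microglia and platelets sense nucleotides, was at 37.7, 39.3, 33.6 and 25.0 CPM in WT and at 19.1, 20.8, 27.0 and 23.1 CPM in miR-21-/- samples (chr3:59216272-59262871, minus strand). Here the groups overlapped, since WT replicate 4 lay below miR-21-/- replicate 3. The log2 fold change of P2ry12 was -0.56 (standard error 0.14), just short of the fold limit of 1.5 and also outside the limit on the adjusted p, while that of Gpr34, the smallest among the 6 genes that passed, lay well beyond it.

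Fcrls, a mouse scavenger receptor of the Fc receptor-like family, had the highest level among the 9 genes per kb of exon in WT TAMs, 42.0 CPM per kb. It was at 136, 89.2, 119 and 48.0 CPM in WT replicates 1 to 4 and at 11.6, 13.8, 17.9 and 6.65 CPM in the miR-21-/- samples (chr3:87250758-87263738, minus strand). All WT values lay above all miR-21-/- values, and WT replicate 4 and miR-21-/- replicate 4 were the lowest of their groups. The means were 97.9 ± 38.4 and 12.5 ± 4.69 CPM (SD, 4 samples each), and the log2 fold change was -2.85 (standard error 0.33). Its RefSeq promoter held GAGGAA, the core of sites for PU.1, a factor all macrophages need, at 144 bases before the start, and TGCTGA, the core of MAF sites, at 47 bases before it (chr3:87263475-87263774, minus strand, GRCm38.p6, both in capitals).
Fcrls promoter: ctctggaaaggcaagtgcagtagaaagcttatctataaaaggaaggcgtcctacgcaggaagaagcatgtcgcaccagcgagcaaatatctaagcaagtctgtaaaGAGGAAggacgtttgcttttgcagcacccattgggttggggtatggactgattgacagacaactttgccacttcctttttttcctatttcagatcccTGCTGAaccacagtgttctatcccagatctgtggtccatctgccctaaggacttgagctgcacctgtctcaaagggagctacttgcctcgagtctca

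The transporter gene Slco2b1 encodes an uptake carrier of organic anions such as steroid sulfates. It was at 6.91, 11.9, 9.87 and 4.06 CPM in WT samples and at 0.224, 0.265, 0.0769 and 0.425 CPM in miR-21-/- samples, which amounts to about 207, 343, 199 and 102 reads against about 6, 9, 2 and 13 reads (chr7:99657804-99711340, minus strand). The miR-21-/- samples thus held only a few reads. The log2 fold change of -2.80 (standard error 0.25) was -4.57 when 0.1 instead of 1 was added to the CPM and -0.81 when 10 was added. The means were 8.17 ± 3.41 and 0.248 ± 0.143 CPM (SD, n = 4 each). For Slco2b1, 3 RefSeq promoters were used, and promoter 3 is shown because it held a PU.1 core, a match to TTCNNNGAA, the motif of STAT factors called GAS, and an RBP-J core (chr7:99695760-99696059, minus strand, GRCm38.p6, matches in capitals). The other two also held a PU.1 core each, from base 7 and base 8 of the transcript.
Slco2b1 promoter 3: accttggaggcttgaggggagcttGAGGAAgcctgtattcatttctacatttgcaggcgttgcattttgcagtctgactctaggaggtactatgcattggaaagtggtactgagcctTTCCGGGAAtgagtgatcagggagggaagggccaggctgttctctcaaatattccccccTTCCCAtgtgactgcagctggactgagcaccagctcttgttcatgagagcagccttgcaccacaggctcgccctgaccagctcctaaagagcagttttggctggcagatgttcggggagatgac

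Tmem176a and Tmem176b lie head to head on chromosome 6 and kept a similar ratio in all samples. Tmem176a was at 22.4, 58.5, 26.6 and 41.3 CPM in WT and at 3.81, 1.98, 3.11 and 4.07 CPM in miR-21-/- samples (chr6:48840919-48847071, plus strand). Tmem176b was at 50.1, 120.3, 59.2 and 94.9 CPM in WT and at 7.02, 4.5, 6.22 and 6.75 CPM in miR-21-/- samples (chr6:48833818-48841496, minus strand). Both genes were highest in WT replicate 2 and lowest in miR-21-/- replicate 2, and the groups did not overlap for either gene.

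For Tmem176a the means were 37.2 ± 16.3 and 3.24 ± 0.934 CPM, with -3.10 as the log2 fold change (standard error 0.28). For Tmem176b they were 81.1 ± 32.5 and 6.12 ± 1.13 CPM, with -3.46 as the log2 fold change (standard error 0.25; SD over 4 samples each). The ratio of Tmem176b to Tmem176a was 2.06 to 2.30 in the WT samples and 1.66 to 2.27 in the miR-21-/- samples, and these ranges overlapped although both genes varied more than 2-fold between WT samples. The annotated spans share 578 bases and the exons 81 bases on opposite strands, and how reads in the shared part were counted is not given in the sources used here. The RefSeq promoters below share 219 bases and are shown because the same pair of PU.1 cores stands in both (GRCm38.p6; Tmem176a, plus strand, chr6:48841406-48841705; Tmem176b, minus strand, chr6:48841325-48841624; matches in capitals). The third match in the Tmem176a promoter is an RBP-J core.
Tmem176a promoter 2: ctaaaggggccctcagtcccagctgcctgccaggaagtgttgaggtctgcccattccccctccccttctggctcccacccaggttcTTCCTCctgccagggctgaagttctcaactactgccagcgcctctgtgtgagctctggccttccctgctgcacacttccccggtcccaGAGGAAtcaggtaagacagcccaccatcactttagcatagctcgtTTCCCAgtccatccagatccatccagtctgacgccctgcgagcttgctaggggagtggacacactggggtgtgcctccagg
Tmem176b promoter 2: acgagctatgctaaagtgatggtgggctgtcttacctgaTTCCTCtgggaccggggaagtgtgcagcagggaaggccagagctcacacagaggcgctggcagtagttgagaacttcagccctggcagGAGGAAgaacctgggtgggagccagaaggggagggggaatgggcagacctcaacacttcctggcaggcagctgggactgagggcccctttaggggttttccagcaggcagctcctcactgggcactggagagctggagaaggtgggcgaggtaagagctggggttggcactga

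The remaining genes of the 9 are markers of microglia that were low in these cells. Tmem119, a membrane protein used to stain microglia, was at 4.15, 2.53, 6.68 and 2.47 CPM in WT and at 7.09, 6.06, 3.15 and 3.67 CPM in miR-21-/- samples (chr5:113793729-113800516, minus strand). Both groups covered nearly the same range, with means of 3.96 ± 1.98 and 4.99 ± 1.89 CPM and a log2 fold change of 0.30 (standard error 0.28; SD, n = 4 each). Olfml3, a secreted protein with an olfactomedin domain, was at 0.702, 0.727, 0.792 and 0.558 CPM in WT and at 0.933, 1.41, 0.768 and 0.761 CPM in miR-21-/- samples (chr3:103722222-103738001, minus strand). This is about 14 to 47 reads per sample, and the groups overlapped, with a log2 fold change of 0.21 (standard error 0.13). Sall1, the factor that sets microglial identity, was at no more than 0.0399 CPM, and Siglech, another microglial marker, at no more than 0.239 CPM in any sample, both near 0.

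Per kb of exon, the order of the mean levels in WT TAMs ran from Fcrls (42.0 CPM per kb) and Tmem176b (34.2) through P2ry12 (13.3), Gpr34 (11.3), Cx3cr1 (10.6) and Tmem176a (9.77) to Tmem119 (1.71), Slco2b1 (1.37) and Olfml3 (0.113). P2ry12, Gpr34, Cx3cr1 and Tmem176a lay closer to each other than the spread of Cx3cr1 between WT samples, whose SD was 44.8% of its mean. In miR-21-/- TAMs, P2ry12 (8.83 CPM per kb) had the highest level per kb, followed by Fcrls (5.35) and Gpr34 (4.08). Tmem176b was at 2.58, Tmem119 at 2.16, Tmem176a at 0.851, Cx3cr1 at 0.598, Olfml3 at 0.157 and Slco2b1 at 0.0416 CPM per kb.

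The samples of 1 genotype also differed, and WT replicate 4 stood out. Its value was the lowest of the 4 WT samples in 7 of the 9 genes, where 32.8% of all tested genes had their lowest WT value in this sample. Compared with the mean of the other 3 WT samples, WT replicate 4 had 0.485 times the Cx3cr1, 0.419 times the Fcrls, 0.426 times the Slco2b1 and 0.611 times the Gpr34 level. The exceptions were Tmem176a and Tmem176b, at 1.15 and 1.24 times the mean of the others. Without WT replicate 4, the log2 fold change of Cx3cr1 was -3.88, that of Fcrls -3.15, that of Slco2b1 -3.06, that of Gpr34 -1.52 and that of P2ry12 -0.70, and P2ry12 then passed the threshold. Those of Tmem176a and Tmem176b were -3.02 and -3.35 without it. WT replicate 2 was the highest in 6 of the 9 genes, all but Fcrls, Tmem119 and Olfml3. Nothing is read from this count, since it has no share over all tested genes beside it.

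**Figure D2:**
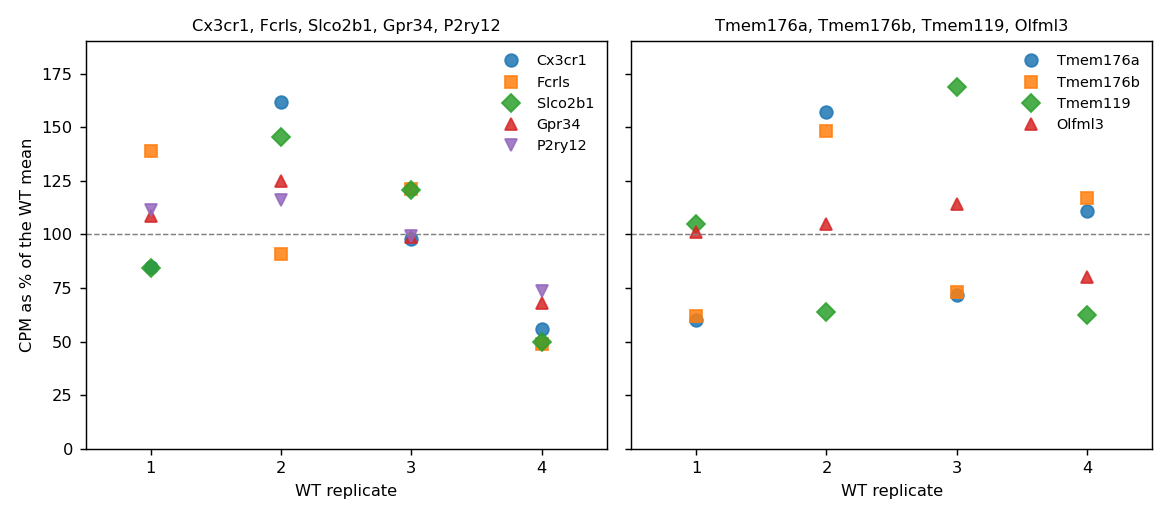
CPM in each WT sample as a percentage of the mean of the 4 WT samples (dashed line at 100), by gene. Cx3cr1, Fcrls, Slco2b1, Gpr34 and P2ry12 are lowest in replicate 4, where Tmem176a and Tmem176b are above their means.

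Ratios between the genes differed in how far they varied between samples. Cx3cr1 was 4.74 to 6.55 times as high as Slco2b1 in the WT samples, a narrow range for genes that each varied more than 2-fold there. In miR-21-/- samples the same ratio ran from 7.0 to 25.5, with Slco2b1 at 2 to 13 reads. P2ry12 was 1.32 to 1.56 times as high as Gpr34 in WT and 2.26 to 3.15 times in miR-21-/- samples, so that these ranges were apart. The ratio of Cx3cr1 to Tmem176b varied more, at 0.280 to 0.807 in WT and 0.315 to 0.527 in miR-21-/- samples, with the lowest value in WT replicate 4. The ratio of Fcrls to Cx3cr1 was loose in both genotypes, at 1.15 to 3.35 in WT and 2.23 to 9.14 in miR-21-/- samples. With 4 samples per genotype in separate groups, no correlation across samples is given.

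The likeness of each tested gene to Cx3cr1 was measured over all 8 samples as the mean absolute difference of the log2(CPM + 1) values after each gene was centred on its own mean. Tmem176b (0.368) and Slco2b1 (0.420) were nearest, followed by B3gnt7 (0.464), Tmem176a (0.466) and Adcy3 (0.493). Fcrls was at rank 8 (0.590), Gpr34 at rank 94, P2ry12 at rank 1022, Olfml3 at rank 12038 and Tmem119 at rank 12603. B3gnt7, a glycosyltransferase of keratan sulfate chains, was at 4.93 to 19.7 CPM in WT samples and 0.827 to 1.16 CPM in miR-21-/- samples, and Adcy3, an adenylate cyclase, at 14.7 to 42.7 and 2.35 to 6.58 CPM. Both had their lowest WT value in replicate 4, as Cx3cr1 did. The measure takes in the genotype difference, which had chosen members. Its ranks lay close to those by log2 fold change from the lowest (Gpr34 102, P2ry12 1027, Olfml3 12039, Tmem119 12604). It therefore does not show covariation with Cx3cr1 within a genotype. Of the 5 nearest genes, 3 were the same with 0.1 added to the CPM and 2 with 10 added.

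Neighbors of the 9 genes were examined for changes along the chromosome. P2ry12 lies within Med12l, a Mediator subunit gene, together with the receptor genes P2ry13, P2ry14 and Gpr171. P2ry13, another ADP receptor, was at 51.5, 71.6, 51.1 and 38.0 CPM in WT and at 19.7, 28.5, 26.8 and 31.9 CPM in miR-21-/- samples, and it fell (log2 fold change -0.95, standard error 0.18, adjusted p = 0.00347 by limma). The call of P2ry13 was lost under 5 of 9 other settings and when any sample other than WT replicate 4 and miR-21-/- replicate 4 was left out (adjusted p 0.00123 to 0.0110 by limma over the 8 samples left out in turn). Med12l also fell (-0.61, adjusted p = 0.00348 by limma), a call lost under 6 of the 9 settings and when any sample but WT replicate 4 was left out (adjusted p 0.00138 to 0.0116), whereas P2ry14, the receptor of UDP-glucose, had a log2 fold change of 0.21 (adjusted p = 0.441 by limma) and Gpr171 of -0.19 (adjusted p = 0.335). The ratio of P2ry12 to its host Med12l overlapped between the genotypes (7.84 to 9.02 in WT, 7.64 to 11.4 in miR-21-/- samples).

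Gpr34 lies in the span of Cask, a scaffold kinase gene, with no shared exon base. Cask had a log2 fold change of -0.52 (adjusted p = 0.00568 by limma) and did not pass, while Gpr82, an orphan receptor gene in the same span, fell from 1.12 to 2.18 CPM in WT to 0.120 to 0.422 CPM in miR-21-/- samples (log2 fold change -1.08, adjusted p = 0.000513 by limma). At this low level, Gpr82 did not pass with a pseudocount of 10 and was not tested with a filter of 5. The ratio of Gpr34 to Cask was 1.16 to 1.63 in WT and 0.567 to 0.841 in miR-21-/- samples, so that Gpr34 was lower also relative to its host gene. Csrnp1 within the Cx3cr1 span was at 51.6 to 68.9 CPM in WT samples and 81.3 to 109 CPM in miR-21-/- samples (log2 fold change 0.58). Gorasp1 in the same span was lower, at 12.7 to 17.2 CPM in WT and 9.59 to 10.5 CPM in miR-21-/- samples (-0.47). Slc25a38, the right neighbor of Cx3cr1, was also lower without overlap of the groups (-0.47). Wdr48 in the span had a log2 fold change of -0.15 and Exog, the left neighbor, of -0.03. None of these genes around Cx3cr1 passed the threshold. Selplg next to Tmem119 had a log2 fold change of -0.05. Beside Tmem176a, Gimap3 and Gpnmb overlapped between the groups.

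**Figure D3:**
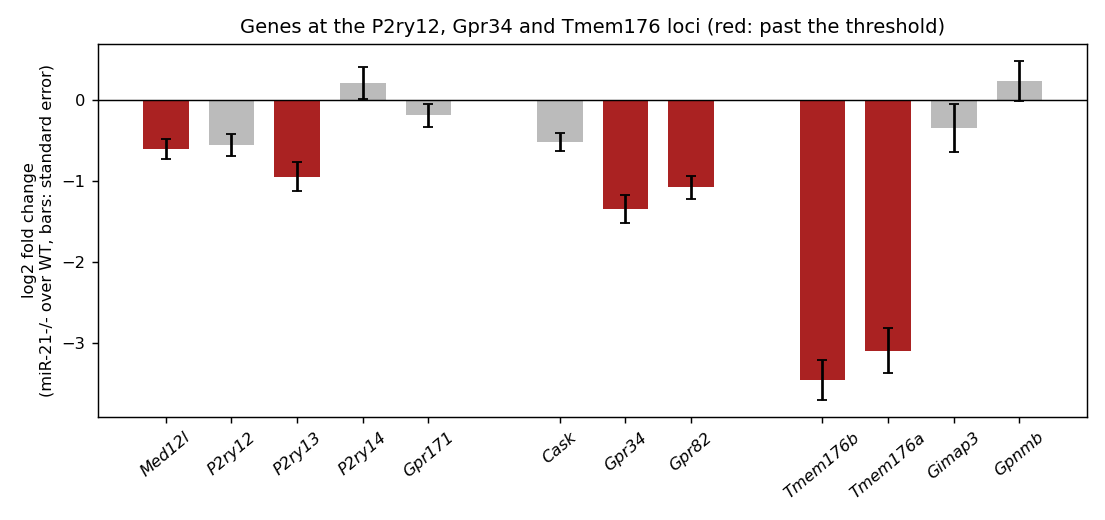
Log2 fold change (miR-21-/- over WT, log2(CPM + 1) scale) of genes in the Med12l span with P2ry12, in the Cask span with Gpr34, and around Tmem176a and Tmem176b; bars are standard errors and red marks genes past the threshold. P2ry13, Med12l and Gpr82 passed as lower at the loci of P2ry12 and Gpr34, while P2ry14 and Gpr171 lie near 0.

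Genes that share a setting with the 9 were counted from lists, to be read beside the 4.23% of all tested genes that passed as lower, the 2.89% that passed as higher and the median of -0.10. Of 16 tested genes of the homeostatic program of microglia other than the 9, 5 fell, 0 rose and 11 did not pass by limma, and the median log2 fold change was -0.32. At an unadjusted p under 0.05 by limma, 8 of the 16 were lower and 2 were higher. Counts at this limit, here and for the other lists, have no share over all tested genes beside them. Nothing is read from them. The 5 that passed as lower were Cd33, a sialic acid receptor (-1.27, adjusted p = 0.000898 by limma), Mef2c, a transcription factor (-1.24, adjusted p = 6.24e-05), Tgfbr1, the TGF-β receptor chain that microglia need to keep this program (-1.17, adjusted p = 1.77e-05), Sparc (-1.01, adjusted p = 0.00227) and P2ry13. Cd33 lost its call without the filter. Sparc lost its call under 3 of 9 other settings. It also did so when WT replicate 1, 3 or 4 or miR-21-/- replicate 2 was left out (adjusted p 0.000640 to 0.00892 by limma over the samples left out in turn). Tgfbr1 was at 64.8 to 81.2 CPM in WT samples and 27.8 to 35.4 CPM in miR-21-/- samples. Gpr84, a receptor of medium-chain fatty acids, lay highest among them and did not pass (log2 fold change 0.73, adjusted p = 0.0502 by limma).

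Of 17 tested genes of interstitial and serous resident macrophages, 3 fell, 0 rose and 14 did not pass by limma, with a median of -0.59. At an unadjusted p under 0.05 by limma, 8 of the 17 were lower and 1 was higher. The growth factor Igf1 was at 48.0, 62.7, 44.3 and 16.0 CPM in WT and at 5.82, 8.60, 3.65 and 5.13 CPM in miR-21-/- samples (log2 fold change -2.58, adjusted p = 0.000683 by limma). Gas6, the ligand of MERTK and AXL, fell by 1.93 (adjusted p = 0.00163) and the ficolin Fcna fell by 1.89 on the log2 scale (adjusted p = 0.000742). Gas6 did not pass when any of WT replicates 1, 2 and 3 or miR-21-/- replicates 1 and 3 was left out (adjusted p 2.73e-05 to 0.00672 over the samples left out in turn). Without the filter, Igf1, Gas6 and Fcna all lost their calls. Cd163, the hemoglobin scavenger receptor, was at 68.4, 102, 115 and 15.6 CPM in WT and at 12.5, 26.5, 17.2 and 7.67 CPM in miR-21-/- samples and did not pass, with WT replicate 4 among the miR-21-/- values (-1.97, adjusted p = 0.0222). WT replicate 4 was the lowest WT sample in 15 of the 17 genes, and without it 7 of the 17 passed as lower, with Cd163 (-2.60), Lyve1 (-1.56), F13a1 (-0.95) and Cbr2 (-1.45) added. The mannose receptor Mrc1 was at 1611 to 3216 CPM in WT samples and 1941 to 2893 CPM in miR-21-/- samples (0.04).

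Patrolling monocytes share Cx3cr1 with resident macrophages. Of 12 tested nonclassical monocyte genes, 3 fell, 1 rose and 8 did not pass (median -0.51). By limma, 8 of the 12 were lower and 2 were higher at an unadjusted p under 0.05. Ace, the angiotensin-converting enzyme, was at 57.4 to 86.9 CPM in WT samples and 7.87 to 17.1 CPM in miR-21-/- samples (-2.33, adjusted p = 4.91e-05 by limma), and Adgre4 was at 89.2 to 171 and 14.5 to 47.2 CPM (-2.23, adjusted p = 0.000691). The third, Eno3, fell by 0.68 and lost its call when any sample but WT replicate 1 was left out (adjusted p 0.000880 to 0.0119). Cd36, the fatty acid and scavenger receptor, rose from 9.0 to 36.1 CPM to 101 to 149.5 CPM (2.52, adjusted p = 0.000540 by limma). Without the filter, Adgre4, Eno3 and Cd36 lost their calls. Of 12 genes of this list, only 1 had its lowest WT value in replicate 4.

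For the ligand and signaling of CX3CR1, 19 of 20 genes were tested, of which 1 fell and 1 rose. These counts lie near the shares of 4.23% lower and 2.89% higher over all tested genes. By limma, 8 of the 19 were lower and 2 were higher at an unadjusted p under 0.05. The ligand gene Cx3cl1 was too low to be tested, at 0.240 to 0.841 CPM over all samples. Adam10 and Adam17, the proteases that shed it, had log2 fold changes of -0.01 and 0.02. Ctss, cathepsin S, which can also cleave the ligand, rose from 1202 to 1362 CPM in WT to 1885 to 2008 CPM in miR-21-/- samples (0.65, adjusted p = 0.000192 by limma), and Adcy7, an adenylate cyclase, fell from 227 to 256 CPM to 144 to 168 CPM (-0.63, adjusted p = 9.74e-05). The 2 calls are near the fold limit: Ctss did not pass after quantile normalization and Adcy7 not after scaling by the median of ratios.

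Around P2ry12, 17 P2Y receptors, nucleotide-degrading enzymes and adenosine receptors were tested, of which 2 fell, 3 rose and 12 did not pass. By limma, 6 of the 17 were lower and 3 were higher at an unadjusted p under 0.05. Besides P2ry13, Entpd3, an ectonucleotidase, fell (-1.14, adjusted p = 0.000901 by limma). The call of Entpd3 was lost with a pseudocount of 10 and without the filter. Entpd1 (CD39), which removes ATP and ADP, was at 265 to 310.2 CPM in WT samples and 437 to 462 CPM in miR-21-/- samples (0.67, adjusted p = 7.53e-05). The adenosine receptors Adora2b (0.67, adjusted p = 0.00421) and Adora3 (0.61, adjusted p = 0.00388) rose by little more than the fold limit. Leaving out any sample but WT replicate 1 and miR-21-/- replicate 3 ended the call of Adora2b (adjusted p 0.00208 to 0.0147), and leaving out any but WT replicate 2 and miR-21-/- replicate 4 that of Adora3 (0.00256 to 0.0134).

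Family members of these genes moved in both directions. Slco3a1, the other organic anion carrier with more than a few CPM, was at 16.3 to 25.3 CPM in WT samples and 59.1 to 75.0 CPM in miR-21-/- samples and rose (1.78, adjusted p = 1.62e-05 by limma), opposite to Slco2b1. Among 4 tested Fc receptor-like genes, Fcrlb rose (1.31, adjusted p = 0.000606 by limma) and Fcrl1 fell (-0.90, adjusted p = 0.00204). The call of Fcrl1 was lost without WT replicate 2 or 3 or miR-21-/- replicate 1 or 2 (adjusted p 0.00106 to 0.00784 by limma). Neither Fcrlb nor Fcrl1 passed without the filter. Of 3 tested olfactomedin genes, 0 passed by limma and 1 had an unadjusted p under 0.05. Olfm1 was at 101 to 114 CPM in WT samples and 78.4 to 96.2 CPM in miR-21-/- samples (-0.32, adjusted p = 0.00747).

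**Figure D4:**
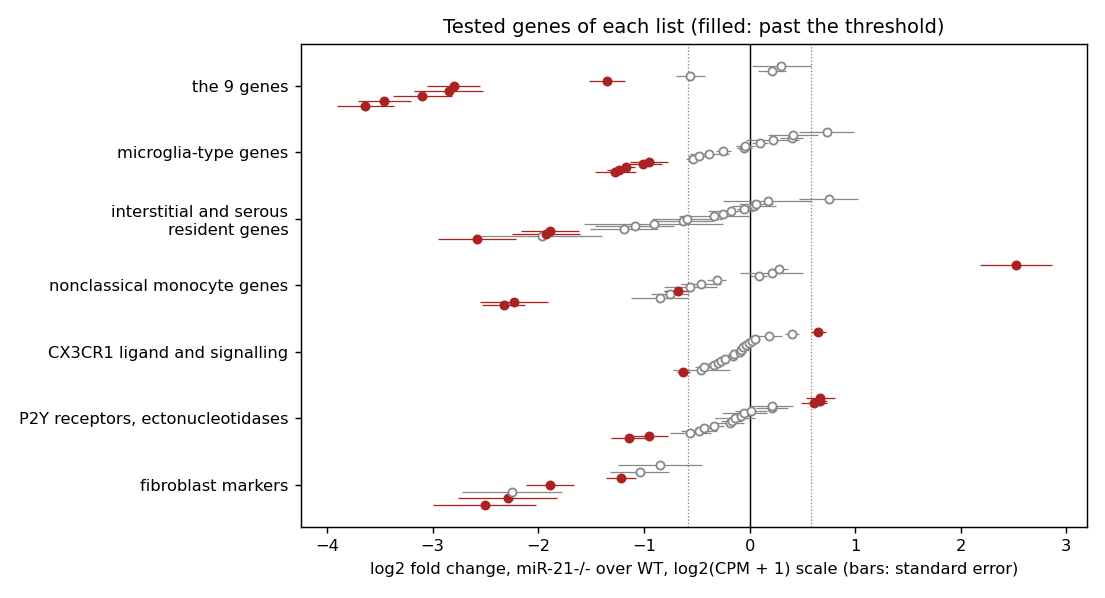
Log2 fold change with its standard error (miR-21-/- over WT, log2(CPM + 1) scale) of every tested gene of the 9 and of 6 lists; filled red points passed the threshold and dotted lines mark a fold change of 1.5. The lowest of the 9 reach -3.64, below every gene of the lists, while Tmem119 and Olfml3 are right of 0. Nothing is read from the position of the 9 against the lists, because the same contrast had chosen members.

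Markers of other cells were read beside these results. Of 7 tested fibroblast markers, 4 fell (Col1a1, Col3a1, Pdgfra and Pdgfrb) and the summed level of the list was 68.2 to 147 CPM in WT samples and 11.8 to 46.9 CPM in miR-21-/- samples. The call of Col1a1 was lost under 6 of the 9 other settings and without any sample but WT replicate 2 and miR-21-/- replicate 2 (adjusted p 0.000882 to 0.0168 by limma), and that of Col3a1 under 5 settings and without any sample but miR-21-/- replicate 2 (0.000209 to 0.0118). The summed fibroblast level moved with the genotype in the same direction as Cx3cr1 and its neighbors in likeness, and its part in their values was not tested. B cell markers summed to 11.7 to 18.1 CPM in WT samples and 3.99 to 11.8 CPM in miR-21-/- samples, and Cd79b, the only one of them tested, fell (-1.45, adjusted p = 0.000375 by limma). Neutrophil markers summed to 769.8 to 1169 and 574 to 748 CPM, with 0 of 7 neutrophil genes passing by limma (5 were lower at an unadjusted p under 0.05). Summed classical monocyte markers overlapped (731 to 1223 and 659 to 1149 CPM), as did those of dendritic cells, endothelium and T and NK cells. Single markers of these lists were apart between the genotypes. Cd4 was at 5.93 CPM or more in WT and at 0.845 to 3.40 CPM in miR-21-/- samples and fell (-2.35, adjusted p = 0.00206 by limma), a call lost with a pseudocount of 10, without the filter, and without WT replicate 1 or 3 or miR-21-/- replicate 3 or 4 (adjusted p 0.000351 to 0.00805 over the samples left out in turn). Cd4 was at rank 11 in likeness to Cx3cr1. Cd8a, at 1.32 to 2.19 and 2.80 to 11.6 CPM, did not pass (1.28, adjusted p = 0.00804 by limma), although the groups did not overlap. Of the dendritic cell markers, Dpp4 fell (-1.04, adjusted p = 0.000467 by limma), a call lost with a pseudocount of 10, while Clec9a was at 2.30 to 2.74 and 4.18 to 14.0 CPM and did not pass (1.26, adjusted p = 0.00532). The part of these markers in the values of the 9 genes was not tested. Platelet markers, read because platelets also make P2ry12, summed to 22.3 to 105 CPM in WT and 49.1 to 86.1 CPM in miR-21-/- samples. Tumor epithelial markers were at 18.8 to 24.8 and 12.7 to 17.9 CPM in sum, and of 7 neural glia markers 2, Mog and Sox10, were listed at 0 in all samples. Fewer cells of a type and less RNA per cell cannot be told apart in these bulk samples.

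In the sequences around the starts, 12 RefSeq promoters of 7 of the 9 genes were searched, and those of Tmem119 and Gpr34 were not analysed here. Motifs were searched on both strands in the 300 bases. The PU.1 core GAGGAA was in 7 of these 12 promoters, those of Fcrls, Slco2b1, Tmem176a and Tmem176b, and in 28.3% of all 32851 promoters in the table. The windows of Tmem176a and Tmem176b overlap, so that these matches are partly the same bases. RBP-J cores (TGGGAA) were in 4 of the 12 and 25.6% of all, GAS motifs (TTCNNNGAA) in 2 and 8.30%, MAF cores (TGCTGA) in 1 and 19.5%, and the E-box CACGTG in 1, that of P2ry12, and 7.15%. A match is a description of the letters in this window.

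The microRNA that the host mice lack is shown with its seed, bases 2 to 8, in capitals (RefSeq, GRCm38.p6, chr11:86584120-86584141, minus strand).
mmu-miR-21a-5p: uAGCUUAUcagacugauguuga
The only 6-base match searched was TAAGCT, alone or within a longer site. The longest 3′ UTR among the coding transcripts of each of 7 of the 9 genes, Cx3cr1, Fcrls, Slco2b1, Tmem176a, Tmem176b, P2ry12 and Tmem119, held no TAAGCT. No gene held an 8-base site. Gpr34, which was lower in miR-21-/- TAMs, held a 7-base site, TAAGCT followed by A, at base 211 of its 3′ UTR (transcript Gpr34-202; chrX:13640560-13640589, plus strand). Olfml3, whose groups overlapped, held a 6-base match at base 3593 of its 3′ UTR (transcript Olfml3-201; chr3:103732233-103732262, minus strand). Capitals mark the 6 bases that pair with the seed.
Gpr34 site: agaatacattgtTAAGCTaacacttttaac
Olfml3 site: tgccaagactggTAAGCTctctcccacaca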

How the data were processed

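TAMs of 4 WT and 4 miR-21-/- samples were profiled by RNA-Seq. The authors deposited CPM values (counts per 1000000 reads) per gene and sample, made with STAR and Partek 7.0 on mm10 according to the submitters' processing notes, each raised by 0.0001; the annotation, counting rule and strand setting are not given in the sources used here. Coordinates are GRCm38, and 93.2% of the symbols matched GENCODE vM21, all 9 genes with the same start and end. Between 75.4% and 76.4% of the values up to 20 reads were whole reads (tolerance 0.05 reads), so that exact counts were not recovered and no count test was run. The read numbers given for single genes are CPM divided by the CPM of a single read, rounded to whole reads, and are approximate. Depth was 20.2 to 33.4 in units of 1000000 reads.

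log2(CPM + 1) was fitted with limma 3.58.1 in R 4.3.3 (eBayes with trend, two-sided), without the replicate number as a block, over 13850 genes. The model was tested on simulated data. Promoters and the miRNA came from RefSeq tables, and seed sites from the longest 3′ UTR among the coding transcripts of GENCODE vM21. The genes and lists were chosen with earlier results of these data known. Named are the 9 genes, overlapping or neighboring genes, the 5 nearest to Cx3cr1 and, per list, up to 4 called genes and the extremes; other list genes were named after their values were seen. The alternatives tried were pseudocounts of 0.1 and 10, dropping the filter or raising it to 5, quantile normalization, scaling by the median of ratios, eBayes without trend, the replicate block, an adjusted p of 0.05 and leaving out each sample. Likeness between proteins was not analysed here.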

Additional observations from a re-analysis of the deposited data

How the results depend on the processing

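The same 6 of the 9 genes passed the threshold as lower under all alternatives run (pseudocount, filter, scaling, trend, replicate block, limit and each sample left out), and P2ry12 joined them without WT replicate 4, so that the count ranged from 6 to 7 over the samples left out. No log2 fold change of the 9 genes changed sign. Their median was -0.85 with a pseudocount of 10 and -3.02 to -2.60 with a sample left out. Over all genes, 201 were lower and 251 higher with a pseudocount of 10, and lower genes numbered 245 without the filter, 350 by the median of ratios, 337 after quantile normalization, 901 at an adjusted p of 0.05, and 371 (without WT replicate 2) to 614 with a sample left out, when 314 to 387 were higher. The share of higher calls rose from 40.6% to 59.8% when scaled by the median of ratios and to 59.3% with quantile normalization, which moved the median of all genes from -0.10 to -0.0030 and -0.0076.

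For the lists, a pseudocount of 10 left 1 lower and 1 higher P2Y or ectonucleotidase gene and 0 lower Fc receptor-like genes. Without the filter, lower genes numbered 2 for the microglia list, 0 for the interstitial list, 0 for the P2Y list, 0 for Fc receptor-like genes and 1 for nonclassical monocytes, and higher genes 1 for the P2Y list, 0 for Fc receptor-like genes and 0 for nonclassical monocytes. The median of ratios gave 3 lower microglia genes, 0 lower CX3CR1 signaling genes and 1 lower P2Y gene. Quantile normalization gave 3 lower microglia genes, 0 higher CX3CR1 signaling genes, 1 lower P2Y gene and 0 lower Fc receptor-like genes. Without the trend, 1 P2Y gene was lower and 1 higher. An adjusted p of 0.05 gave 6 lower interstitial and 5 lower nonclassical genes. With a sample left out, lower genes ranged from 3 to 5 (microglia), 2 to 7 (interstitial, 7 without WT replicate 4), 1 to 3 (P2Y, with 1 to 2 higher), 0 to 1 (Fc receptor-like) and 2 to 3 (nonclassical). Of the 5 genes nearest to Cx3cr1, 3 were shared with a pseudocount of 0.1 and 2 with 10. The cause of these shifts was not tested.

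With the replicate number as a block, 1 P2Y gene and 2 Fc receptor-like genes were lower. Same-numbered samples had correlations of 0.0828, -0.111, -0.143 and 0.22 in their deviations from the group means. By these, 1 of 4 matched its own number best. The miR-21-/- numbers follow the order of the samples and partly differ from those in their titles. This check and the block therefore cannot decide whether samples were paired by title number. The numbers were not taken to pair the samples. All symbols were unique, so that taking the highest value per symbol gives the same table. Depth limits Slco2b1 in miR-21-/- samples (2 to 13 reads) and Olfml3 (14 to 47 reads).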
